A study of Homo sapiens with 9 samples.

Results

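The mRNAs of 10 inflammatory cytokines and chemokines (IL1A, IL1B, IL6, CXCL8, CXCL1, CXCL2, LIF, IL11, IL24 and CCL2) were followed in ES-2 cells, out of 58174 genes in the deposited tables. IL24 was selected on its own values, because it moved in opposite directions in the 2 knockdowns, and its values are therefore given as a description without a test. The other 9 genes were chosen by name for comparison with it, as inflammatory cytokines, with earlier results of these data known. A read was counted in at least 1 library for 9 of the 10 genes, and 8 passed the filter on low values, of which IL24 was left untested.

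ES-2 cells are an established line of ovarian cancer origin. The cells were transfected with a control siRNA (siC), with siRNAs directed against IGF2BP1 (siIGF2BP1, labelled siImp1 after IMP1, an older name of IGF2BP1) or with siRNAs directed against SRF (siSRF), and RNA was harvested 72 h later. Every library, siC included, came from transfected cells, each knockdown used 1 pool of siRNAs and no inflammatory stimulus is named in the labels. Total RNA was sequenced after removal of ribosomal RNA, with 3 libraries per condition. The labels do not say whether these came from separate cultures, so p-values measure the spread between these libraries, which may be technical.

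Cytokines and chemokines are small secreted proteins through which cells signal to each other. Many of their genes are switched on by NF-kB, AP-1 and C/EBP transcription factors after damage or infection, and tumour cells often transcribe them without such a trigger. Their mRNAs commonly carry AU-rich elements in the 3′UTR, at which RNA-binding proteins shorten or extend the life of the transcript. IGF2BP1 is an oncofetal RNA-binding protein that stabilizes target mRNAs, and SRF is the transcription factor that binds CArG boxes in promoters of actin and growth-response genes.

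The promoters of the 3 neutrophil chemokines, of IL11 and of IL24 are shown because the values of these genes are set side by side further on. Each line holds the 150 bases before the RefSeq start (GRCh38.p14), 5′ to 3′ on the strand of the gene, with matches to the NF-kB motif GGANTTTCC or the AP-1 motif TGANTCA in capitals. The regions are chr4:73740419-73740568 on the plus strand, chr4:73869243-73869392 on the plus strand, chr4:74099196-74099345 on the minus strand, chr19:55370464-55370613 on the minus strand and chr1:206897293-206897442 on the plus strand.
CXCL8: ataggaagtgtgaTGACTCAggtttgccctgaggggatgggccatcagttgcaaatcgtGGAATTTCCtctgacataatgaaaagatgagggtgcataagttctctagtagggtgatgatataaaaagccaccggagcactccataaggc
CXCL1: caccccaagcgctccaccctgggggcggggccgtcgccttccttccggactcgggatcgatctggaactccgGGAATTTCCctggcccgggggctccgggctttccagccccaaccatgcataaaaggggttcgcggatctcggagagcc
CXCL2: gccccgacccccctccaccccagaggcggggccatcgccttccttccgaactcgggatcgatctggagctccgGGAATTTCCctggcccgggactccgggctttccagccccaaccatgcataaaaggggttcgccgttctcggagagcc
IL11: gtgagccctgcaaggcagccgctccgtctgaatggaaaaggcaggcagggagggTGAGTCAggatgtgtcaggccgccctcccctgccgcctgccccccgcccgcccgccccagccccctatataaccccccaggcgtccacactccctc
IL24: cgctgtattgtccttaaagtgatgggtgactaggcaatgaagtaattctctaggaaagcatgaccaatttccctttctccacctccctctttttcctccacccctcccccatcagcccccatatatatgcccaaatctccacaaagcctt

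Motifs were searched on both strands in the 250 bases before the start, for the 8 members in the RefSeq promoter table (all but LIF and CCL2). The NF-kB motif was found in CXCL8, CXCL1, CXCL2 and IL6, with its first base 91, 78, 77 and 72 bases before the start. Over all 35116 promoters in the table, 1.45% held it. The AP-1 motif, held by 6.57% of all promoters, was found 137 bases before the start of CXCL8, 96 bases before that of IL11 and in both promoters listed for IL1A. The C/EBP motif TTGCNNAA was found in CXCL2, IL1B and IL6 and in 9.05% of all promoters. IL24 held no match to these motifs, and none of the 8 members held a CArG box, which 1.16% of all promoters carried. A match to these letters is a description and does not show binding.

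All 10 members carry at least 1 ATTTA, the core of an AU-rich element, in the 3′UTR of their MANE Select transcript (GENCODE v44, GRCh38). A stretch of 30 bases is shown for CXCL8 and CXCL2, of which CXCL8 fell in the IGF2BP1 knockdown and CXCL2 did not pass, and for IL24, with ATTTA in capitals. These lie at chr4:73743108-73743137 on the plus strand, chr4:74097590-74097619 on the minus strand and chr1:206903274-206903303 on the plus strand.
CXCL8: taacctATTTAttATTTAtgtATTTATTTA
CXCL2: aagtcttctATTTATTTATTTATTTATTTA
IL24: agattcttgtATTTAttacaactctATTTA

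CXCL2 held 10 copies of ATTTA and CXCL8 and IL11 held 9 each. LIF had 7, IL1B, IL6 and CXCL1 had 6 each, IL1A had 5, IL24 had 3 and CCL2 had 1. Per kilobase of 3′UTR these came to 13.9 in CXCL2, 7.17 in CXCL8, 2.77 in IL24 and 2.19 in LIF, against 2.27 over all 19061 3′UTRs, of which 67.3% held the motif. The let-7 seed match CTACCTC, found in 9.7% of all 3′UTRs, was in none of the members' 3′UTRs.

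The libraries held from 6421764 to 9416175 reads assigned to genes. IGF2BP1 itself was at 12.8 ± 0.689 FPKM (fragments per kilobase of gene length, scaled to the size of the library; mean ± SD, n = 3 here and throughout) in siC, 4.11 ± 0.0846 FPKM with siIGF2BP1 and 14.2 ± 0.455 FPKM with siSRF. SRF was at 14.5 ± 1.28 FPKM in siC, 1.47 ± 0.145 FPKM in siSRF and 6.01 ± 0.714 FPKM in siIGF2BP1, so SRF mRNA was also lower in the libraries of the IGF2BP1 knockdown. Of 7 leukocyte markers, PTPRC, CD3E and MS4A1 were at 0 in all 9 libraries, and the summed level of the 7 lay between 0.276 and 0.576 FPKM with siC, 0.552 and 1.16 FPKM with siIGF2BP1 and 0.0544 and 0.260 FPKM with siSRF. Of the ovarian carcinoma markers, MUC16 was at 0 in every library and PAX8 did not exceed 0.262 FPKM, while the mesenchymal marker VIM stood at 1055 ± 9.38 FPKM in siC. The 3 mesenchymal markers (VIM, FN1 and CDH2) summed to between 1082 and 1100 FPKM with siC, 883.6 and 964.8 FPKM with siIGF2BP1 and 869.9 and 918.7 FPKM with siSRF. The 6 epithelial markers summed to between 148.6 and 160.8 FPKM with siC, 191.8 and 219.5 FPKM with siIGF2BP1 and 216.5 and 221.9 FPKM with siSRF. Nearly all of that sum was KRT7, KRT18 and KRT8. The epithelial markers EPCAM, CDH1 and KRT19 were at 0 in siC and did not exceed 0.259 FPKM in any library. In limma KRT7 was called higher in both knockdowns, KRT8 in siIGF2BP1 and KRT18 in siSRF, while FN1 was called lower in both, VIM lower in siSRF and CDH2 higher in siIGF2BP1. The 4 endothelial markers summed to between 8.55 and 11.1 FPKM in siC, 14.6 and 16.5 FPKM with siIGF2BP1 and 7.87 and 8.65 FPKM with siSRF, mostly CDH5, and the part of these marker shifts in the results was not tested. These are bulk libraries, in which fewer cells expressing a gene and less RNA per cell cannot be told apart.

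In the siC libraries CXCL8 was the most abundant member, at 54.6 ± 5.73 FPKM. LIF (16.0 ± 1.79 FPKM), CXCL1 (11.02 ± 0.887 FPKM) and IL24 (6.31 ± 0.648 FPKM) followed, each separated from the next by more than the SD of either. IL1A (1.80 ± 0.0794 FPKM), CXCL2 (1.73 ± 0.416 FPKM) and IL1B (1.49 ± 0.482 FPKM) lay within the spread of each other, and IL11 stood at 0.798 ± 0.0287 FPKM. IL6 and CCL2 were at or near 0. Summed over the 10 members, the level was 93.8 ± 4.95 FPKM with siC, 45.1 ± 1.98 FPKM with siIGF2BP1 and 129.8 ± 5.22 FPKM with siSRF. CXCL8 made up 58.1 ± 3.14% of that sum in siC, 34.0 ± 2.37% in siIGF2BP1 and 53.5 ± 1.33% in siSRF.

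**Figure D1:**
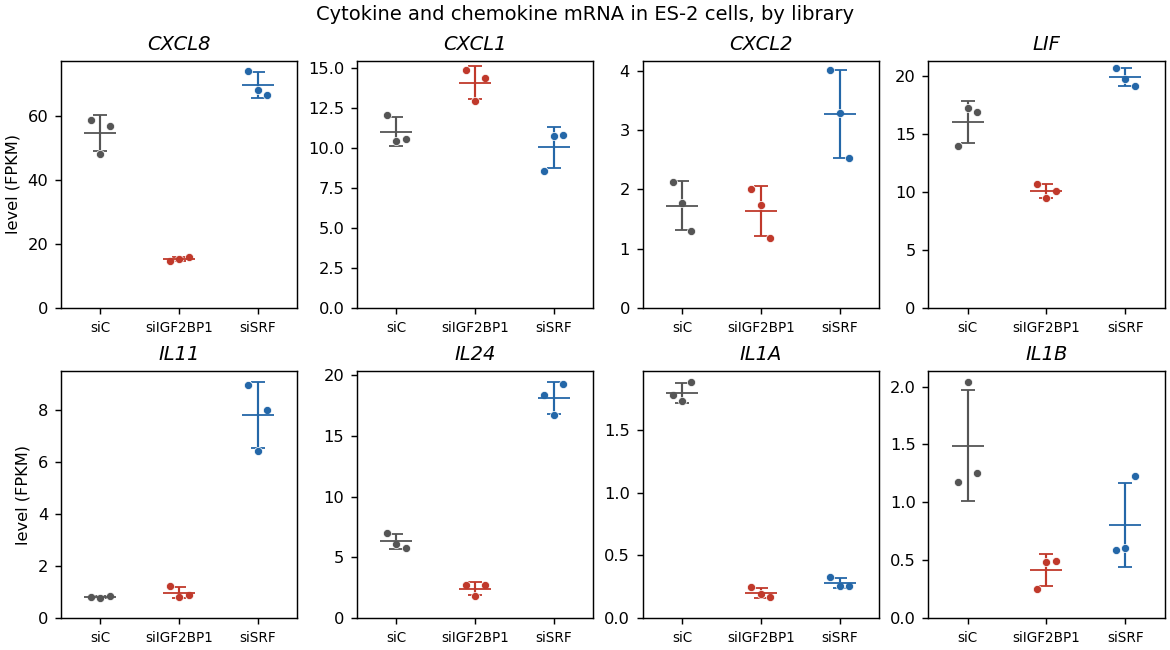
Level in FPKM (vertical axis, from 0, its own scale in each panel) of the 8 members that passed the filter in the 3 libraries of siC, siIGF2BP1 and siSRF; points are libraries, horizontal lines are means and bars are 1 SD. CXCL8, LIF and IL24 are lowest in siIGF2BP1 and highest in siSRF, IL11 is high in siSRF alone (7.82 FPKM against 0.798 FPKM in siC), and IL1A is low in both knockdowns.

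Changes were tested with limma on log2(FPKM + 0.1), a scale that understates the change of genes with few reads, and a gene was called at a Benjamini-Hochberg adjusted p of at most 0.01 over all genes tested. Both knockdowns were compared with the same siC libraries. Of the 7 tested members other than IL24, IL1A, CXCL8 and LIF (3 genes) fell in siIGF2BP1 and the other 4 did not pass the test. Over all genes, 3.57% were called lower and 3.55% higher in siIGF2BP1. In siSRF, IL1A fell and IL11 rose (1 gene each way) and the other 5 did not pass, against 5.34% of all genes called lower and 6.85% called higher. Compared directly, CXCL8, LIF and IL11 (3 genes) were lower in siIGF2BP1 than in siSRF and the other 4 did not pass, against 11.2% of all genes called lower and 8.82% called higher. By limma-voom on the reads recovered from FPKM, at the same threshold, IL1B was also called lower in siIGF2BP1, which makes 4 members against 8.48% of all genes. In siSRF CXCL8 and LIF were also called higher by limma-voom, which makes 3 members against 12.7% of all genes. Between the knockdowns limma-voom added CXCL2 as lower in siIGF2BP1 and CXCL1 as higher, against 16.3% and 14.7% of all genes. The median log2 change of the 7 tested members was -0.66 in siIGF2BP1 and 0.32 in siSRF, beside 0.02 and 0.01 over all genes tested. With 3 libraries against 3, an exact permutation test of a single gene cannot give a two-sided p below 0.1, and it gave 0.1 wherever the libraries of the groups did not overlap.

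**Figure D2:**
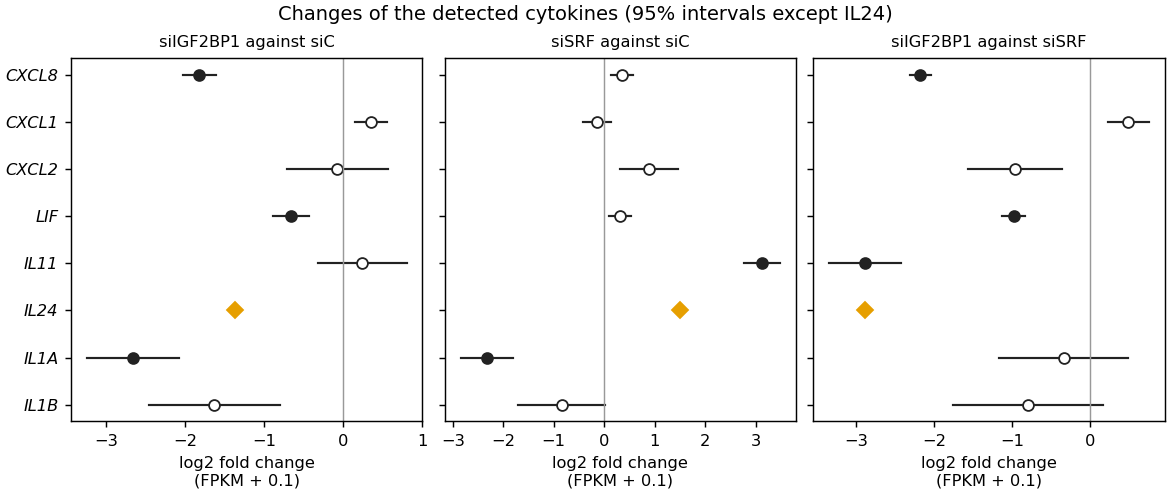
Log2 fold change on the FPKM + 0.1 scale (horizontal axis) in the 3 comparisons, with a 95% interval for the 7 tested members. Filled circles passed an adjusted p of 0.01 and open circles did not; the diamond is IL24, which was selected on these values and is drawn without an interval, and the largest value is the 3.13 of IL11 in siSRF.

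CXCL8, CXCL1 and CXCL2 are ligands of the receptors CXCR1 and CXCR2 and draw neutrophils into tissue. CXCL8 (chr4:73740519-73743716, plus strand) was at 58.8, 48.1 and 56.9 FPKM with siC, 14.6, 15.4 and 15.9 FPKM with siIGF2BP1 and 74.1, 67.9 and 66.6 FPKM with siSRF. All 3 libraries of the IGF2BP1 knockdown lay far below every other library, and those of the SRF knockdown lay above all siC libraries. In siIGF2BP1 CXCL8 fell to 28.0% of its level in siC, a log2 change of -1.83 (SE 0.0855, limma adjusted p = 0.00018). In siSRF its log2 change of 0.35 (SE 0.0869, 95% interval 0.14 to 0.56) missed the threshold with a limma adjusted p of 0.0308, while limma-voom gave 0.35 with an adjusted p of 0.000212. After correction of each library for GC content and gene length the value was 0.05 (limma adjusted p = 0.557). Between the knockdowns the log2 difference was -2.18 (SE 0.0567, limma adjusted p = 9.74e-06).

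CXCL1 (chr4:73869393-73871308, plus strand) lay near CXCL8 on chromosome 4 and carried the same NF-kB motif letters shown above, but its values took another course. It was at 12.04, 10.4 and 10.6 FPKM with siC, 14.9, 12.9 and 14.4 FPKM with siIGF2BP1 and 8.54, 10.8 and 10.8 FPKM with siSRF. The siIGF2BP1 libraries lay above those of the other groups, which overlapped each other. The log2 change in siIGF2BP1 was 0.35 (SE 0.0843, limma adjusted p = 0.0385), that in siSRF was -0.14 (95% interval -0.41 to 0.13, limma adjusted p = 0.449), and neither passed. CXCL2 (chr4:74097040-74099196, minus strand) was at 2.12, 1.77 and 1.29 FPKM with siC, 2.0, 1.74 and 1.18 FPKM with siIGF2BP1 and 4.02, 3.29 and 2.53 FPKM with siSRF. The siSRF libraries lay above all the others, while siC and siIGF2BP1 overlapped. The log2 change of CXCL2 in siSRF was 0.89 (95% interval 0.31 to 1.47, limma adjusted p = 0.0412) and in siIGF2BP1 -0.07 (95% interval -0.72 to 0.57, limma adjusted p = 0.895). The difference between knockdowns did not pass for either gene, with log2 values of 0.49 for CXCL1 (limma adjusted p = 0.0158) and -0.97 for CXCL2 (limma adjusted p = 0.0272).

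CXCL1 and CXCL2 transcripts were 91.1% identical over 1094 aligned bases, and 5.33% of the 50-base stretches of CXCL1 also occurred in CXCL2, so some reads of these genes and of CXCL3 could not be placed with certainty. CXCL5, another ligand of CXCR2, was more abundant than any member, at 90.1 ± 9.51 FPKM in siC. It fell to 39.9 ± 0.166 FPKM in siIGF2BP1 (log2 -1.17, SE 0.0795, limma adjusted p = 0.000579) and rose to 268.6 ± 6.23 FPKM in siSRF (log2 1.58, SE 0.0806, limma adjusted p = 0.000236). CXCL3 rose in siSRF from 1.22 to 4.38 FPKM (limma adjusted p = 0.00268), and CCL28, a mucosal chemokine, fell from 3.37 to 1.82 FPKM (limma adjusted p = 0.00308). Of the 14 chemokines outside the members 4 were tested, of which 1 fell in siIGF2BP1 and 1 fell and 2 rose in siSRF. Over all genes 3.57% were called lower in siIGF2BP1, and 5.34% lower and 6.85% higher in siSRF. The receptors CXCR1 and CXCR2 were at 0 in all libraries.

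LIF, IL11 and IL6 belong to the cytokine family that signals through the shared receptor subunit IL6ST (gp130) to JAK kinases and STAT3. LIF (chr22:30240453-30246759, minus strand) was at 14.0, 17.2 and 16.9 FPKM with siC, 10.6, 9.46 and 10.1 FPKM with siIGF2BP1 and 20.7, 19.8 and 19.2 FPKM with siSRF. No libraries of different groups overlapped, with siIGF2BP1 lowest and siSRF highest. LIF fell to 62.8% of siC in siIGF2BP1, a log2 change of -0.66 (SE 0.0964, limma adjusted p = 0.0068), but with 1 library left out the call was kept in only 1 of 6 fits, that without siC replicate 1, with log2 changes between -0.76 and -0.61. In siSRF its log2 change of 0.32 (SE 0.0893, limma adjusted p = 0.0485) did not pass, but by limma-voom it was 0.31 (adjusted p = 0.00321) and after the correction for GC content and gene length 0.49 (limma adjusted p = 0.00533). The knockdowns differed from each other by a log2 value of -0.98 (SE 0.0598, limma adjusted p = 0.000104), which puts LIF in siIGF2BP1 at 50.6% of its level in siSRF.

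IL11 (chr19:55364382-55370463, minus strand) was at 0.794, 0.771 and 0.828 FPKM with siC, 1.22, 0.821 and 0.884 FPKM with siIGF2BP1 and 8.97, 6.45 and 8.02 FPKM with siSRF. The siSRF values rest on 171, 157 and 158 reads and those of siC on 14, 14 and 16 reads. All siSRF libraries stood several fold above every other library. IL11 rose 9.79-fold in siSRF, a log2 change of 3.13 (SE 0.148, 95% interval 2.77 to 3.49, limma adjusted p = 0.00019). In siIGF2BP1 the log2 value of IL11 against siC was 0.24 (95% interval -0.32 to 0.80, limma adjusted p = 0.538), and IL11 was lower there than in siSRF by a log2 difference of -2.88 (SE 0.19, limma adjusted p = 0.000135). SRF mRNA was at 6.01 FPKM in siIGF2BP1 and 1.47 FPKM in siSRF, against 14.5 FPKM in siC. Its part in the values of IL11 was not tested.

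IL6 (chr7:22725884-22732002, plus strand), the acute-phase cytokine of this family, had 0, 1 and 1 reads in siC, 0, 1 and 1 reads in siIGF2BP1 and no read in siSRF. It was not tested and no fold is given. Its promoter held both an NF-kB and a C/EBP motif, and its 3′UTR the densest ATTTA among the members, at 14.0 per kilobase. IL6R, the receptor of IL6, was low, at 0.652 FPKM with siC, 0.28 FPKM with siIGF2BP1 and 0.846 FPKM with siSRF. Its change passed in neither knockdown. The subunits LIFR and IL6ST were measured well. LIFR, the LIF receptor, rose from 5.63 ± 0.704 FPKM in siC to 15.8 ± 0.978 FPKM in siIGF2BP1 (log2 1.48, limma adjusted p = 0.000603) and to 9.22 ± 0.174 FPKM in siSRF (log2 0.71, limma adjusted p = 0.00417). IL6ST rose from 22.6 ± 0.662 FPKM to 41.4 ± 1.59 FPKM in siIGF2BP1 (log2 0.87, limma adjusted p = 0.000297) and to 54.7 ± 1.78 FPKM in siSRF (log2 1.27, limma adjusted p = 6.07e-05). IL11RA, the receptor of IL11, stayed at or below 0.299 FPKM on average in each group.

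IL1A and IL1B encode the paired interleukins that open many inflammatory cascades through the receptor IL1R1. IL1A (chr2:112773925-112784493, minus strand) was at 1.78, 1.73 and 1.89 FPKM with siC, 0.246, 0.194 and 0.167 FPKM with siIGF2BP1 and 0.330, 0.258 and 0.255 FPKM with siSRF. These rest on 25, 25 and 29 reads in siC, 4, 3 and 3 reads in siIGF2BP1 and 5, 5 and 4 reads in siSRF. Every siC library stood above every knockdown library. IL1A fell in both knockdowns, with a log2 change of -2.66 in siIGF2BP1 (SE 0.241, limma adjusted p = 0.00136) and of -2.32 in siSRF (SE 0.217, limma adjusted p = 0.00109). From summed reads its level was 11.1% of siC in siIGF2BP1 (exact 95% interval 5.14 to 21.6%) and 15.5% in siSRF (8.09 to 27.5%), intervals that cover counting error only. The knockdowns differed from each other by a log2 value of -0.34 (95% interval -1.17 to 0.49, limma adjusted p = 0.505). IL1A was the only tested member called in the same direction in both knockdowns.

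IL1B (chr2:112829751-112836816, minus strand) was at 1.17, 2.04 and 1.25 FPKM with siC, 0.253, 0.487 and 0.496 FPKM with siIGF2BP1 and 0.589, 0.602 and 1.23 FPKM with siSRF. The siIGF2BP1 libraries lay below all others, while the highest siSRF library reached into the siC range. The log2 values were -1.63 in siIGF2BP1 (SE 0.342, limma adjusted p = 0.0235) and -0.84 in siSRF (95% interval -1.70 to 0.02, limma adjusted p = 0.151), and neither passed. By limma-voom the value in siIGF2BP1 was -1.81 with an adjusted p of 0.000149, which passed. From summed reads IL1B was at 27.8% of siC in siIGF2BP1 (exact 95% interval 17.8 to 42.3%) and 53.3% in siSRF (37.8 to 74.7%), for counting error only. IL1R1 stood at 0.349 ± 0.0367 FPKM with siC, 1.22 ± 0.538 FPKM with siIGF2BP1 and 0.399 ± 0.0178 FPKM with siSRF, and its change passed in neither knockdown. The natural antagonist IL1RN and the related cytokine IL33 were at 0 in all libraries.

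IL24 (chr1:206897443-206904139, plus strand) is a cytokine of the IL10 family that signals through receptors containing IL20RB. It was at 7.04, 6.10 and 5.80 FPKM with siC, 2.70, 1.80 and 2.74 FPKM with siIGF2BP1 and 18.4, 16.7 and 19.3 FPKM with siSRF, from 26 to 46 reads per library in siIGF2BP1 and 260 to 302 in siSRF. No libraries of different groups overlapped. Its mean in siIGF2BP1 was 38.3% of that in siC and its mean in siSRF was 2.88-fold that in siC, with log2 changes of -1.37 and 1.51. Between siSRF and siIGF2BP1 its means differed 7.52-fold. Its share of the summed level of the 10 members was 6.73 ± 0.586% in siC, 5.33 ± 0.978% in siIGF2BP1 and 14.0 ± 0.973% in siSRF.

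CXCL8, LIF and CXCL2 had the same order of group means as IL24, lowest in siIGF2BP1 and highest in siSRF. For CXCL2 the siC and siIGF2BP1 libraries overlapped (means 1.73 and 1.64 FPKM). None of these genes passed the limma test of siSRF against siC. By limma-voom CXCL8 (adjusted p = 0.000212) and LIF (adjusted p = 0.00321) passed it. After correction for GC content and gene length the log2 change was 0.05 for CXCL8 (limma adjusted p = 0.557). For LIF it was 0.49 (limma adjusted p = 0.00533). CXCL5, outside the members, was called lower in siIGF2BP1 and higher in siSRF, as given above. IL24 lies in the IL10 gene cluster on chromosome 1. Its neighbours IL10, IL19 and IL20 had no read in any library. MAPKAPK2, a kinase gene next to the cluster, fell in siSRF from 19.6 ± 1.02 to 13.7 ± 0.768 FPKM (limma adjusted p = 0.00277), while IL24 was higher there. In siIGF2BP1 MAPKAPK2 was at 15.3 ± 0.973 FPKM and did not pass (limma adjusted p = 0.0172), and IL24 was lower there. Of its receptor subunits, IL20RA was at 0 in all libraries, IL22RA1 had 5 reads over all 9 libraries, and IL20RB was at 1.36 ± 0.275 FPKM with siC, 1.04 ± 0.211 FPKM with siIGF2BP1 and 1.25 ± 0.0533 FPKM with siSRF.

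Among 10379 protein-coding genes averaging at least 1 FPKM, the pattern over the 9 libraries most like that of IL24 was found in C8orf33 (Pearson r = 0.996), RPF1 (r = 0.995), MRPL57 (r = 0.994), PDE4DIP (r = 0.993) and RRP9 (r = 0.993). These are correlations over libraries of 3 conditions, given as a description, since the libraries share their conditions and scaling. The amplitude of these genes was smaller, RPF1 for instance lying at 30.7 FPKM with siC, 20.4 FPKM with siIGF2BP1 and 47.3 FPKM with siSRF. In the same ranking LIF came at place 589 (r = 0.94), CXCL8 at 985 (r = 0.908), IL11 at 1752 (r = 0.839), CXCL2 at 2448 (r = 0.756) and CXCL1 at 8837 (r = -0.794).

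**Figure D3:**
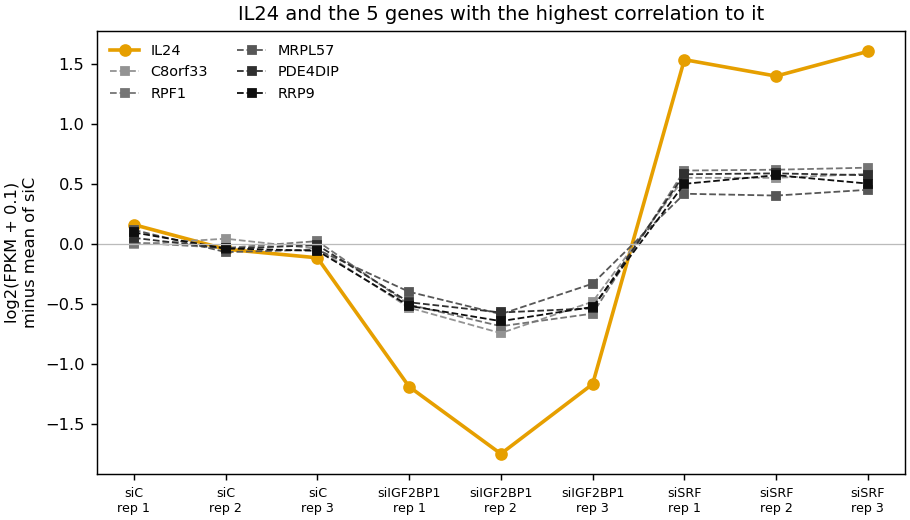
Log2(FPKM + 0.1) minus the mean of siC (vertical axis) of IL24 and of the 5 genes with the highest Pearson correlation with it, in each of the 9 libraries (horizontal axis). All 6 genes are below siC in siIGF2BP1 and above it in siSRF, and IL24 (7.52-fold between the knockdowns) moves further than the others.

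CCL2 (chr17:34255274-34257208, plus strand), which attracts monocytes, had no read in any of the 9 libraries. A count of 0 allows up to 3 reads, which corresponds to between 0.166 and 0.229 FPKM depending on the library, for counting error only. CCL2 was thus below the limit of this depth in all conditions, and its receptor CCR2 was also at 0.

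The genes around the members were followed in lists chosen with earlier results of these data known. Among 16 NF-kB feedback and target genes, 1 of the 15 tested fell in siIGF2BP1, while 1 fell and 4 rose in siSRF. The shares over all genes were 3.57% lower in siIGF2BP1, and 5.34% lower and 6.85% higher in siSRF. BCL2A1, an anti-apoptotic BCL2 relative, fell from 3.002 to 0.356 FPKM in siIGF2BP1 (log2 -2.78, limma adjusted p = 0.00231) and rose to 11.7 FPKM in siSRF (log2 1.95, limma adjusted p = 0.000731). BIRC3 and BIRC2, ubiquitin ligases of the NF-kB pathway, rose in siSRF by log2 values of 1.77 (limma adjusted p = 0.000273) and 1.06 (limma adjusted p = 0.000606). CYLD, a deubiquitinase that restrains the pathway, rose in siSRF from 2.72 to 4.71 FPKM (limma adjusted p = 0.00268), and TNFAIP2, named after its values were seen, fell from 23.0 to 18.2 FPKM (limma adjusted p = 0.00363). NFKBIA, the gene of the inhibitor IkB alpha, did not pass in either knockdown, lying at 11.3 FPKM with siC, 13.3 FPKM with siIGF2BP1 and 11.1 FPKM with siSRF. Compared directly, 8 of 16 were lower in siIGF2BP1 than in siSRF, against 11.2% of all genes.

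Of 15 NF-kB subunits, kinases and adaptors, 2 fell in siIGF2BP1 and 1 rose in siSRF, against 3.57% and 6.85% of all genes. IRAK1, the kinase that carries the signal of the IL1 receptor, fell from 76.7 ± 3.75 to 43.96 ± 2.80 FPKM in siIGF2BP1 (log2 -0.80, limma adjusted p = 0.000863), and the IkB kinase IKBKB fell by 0.47 on the log2 scale (limma adjusted p = 0.00372). CHUK, the other IkB kinase, rose by 0.53 on the log2 scale in siSRF (limma adjusted p = 0.00437). RELA, the main activating subunit, was at 9.22 ± 0.979 FPKM with siC, 7.92 ± 1.37 FPKM with siIGF2BP1 and 9.71 ± 0.491 FPKM with siSRF and passed in neither.

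Of 14 JAK, STAT and SOCS genes, which act below LIF and IL11 and their relatives, 6 rose and 1 fell in siIGF2BP1. Over all genes 3.55% were called higher and 3.57% lower there. In siSRF 2 of 13 rose and 1 fell, against 6.85% and 5.34% of all genes. SOCS3, an inhibitor of gp130 signalling that STAT3 induces, rose from 3.63 ± 0.336 FPKM to 8.65 ± 1.21 FPKM in siIGF2BP1 (limma adjusted p = 0.00201) and to 8.28 ± 0.618 FPKM in siSRF (limma adjusted p = 0.000801). SOCS1 rose in siIGF2BP1 from 0.594 to 2.61 FPKM (limma adjusted p = 0.00148) and the kinase gene PIM1 from 13.7 to 24.5 FPKM (limma adjusted p = 0.000918), while LIF fell in these libraries.

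**Figure D4:**
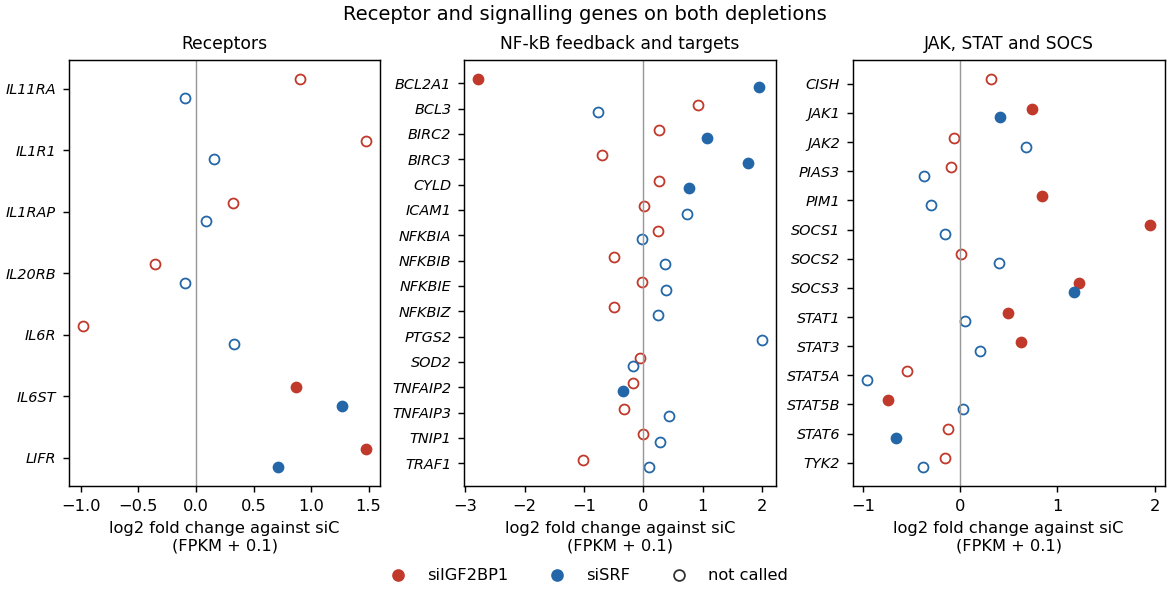
Log2 fold change against siC on the FPKM + 0.1 scale (horizontal axis) for tested receptors of the members, NF-kB feedback and target genes and JAK, STAT and SOCS genes, in siIGF2BP1 and siSRF; filled points passed an adjusted p of 0.01. BCL2A1 moves in opposite directions (log2 -2.78 and 1.95), while LIFR, IL6ST, SOCS3 and JAK1 are filled to the right of 0 in both.

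Of 11 regulators of AU-rich mRNA, 2 fell and 1 rose in siIGF2BP1, against 3.57% and 3.55% of all genes. In siSRF the smallest limma adjusted p among them was 0.0208, for TIAL1. In siIGF2BP1 KHSRP, which promotes the decay of AU-rich mRNAs, fell by 0.46 on the log2 scale (limma adjusted p = 0.00382). ELAVL1 (HuR), which stabilizes them, fell there by 0.45 (limma adjusted p = 0.00667). The gene that rose in siIGF2BP1 was TIA1, by 0.47 on the log2 scale (limma adjusted p = 0.00946). Of 5 tested C/EBP and ATF factors, 1 rose and 1 fell in siIGF2BP1, against 3.55% and 3.57% of all genes. CEBPD rose there from 4.45 to 11.7 FPKM (limma adjusted p = 0.00198). CEBPB fell there from 17.9 to 11.5 FPKM (limma adjusted p = 0.00219). In siSRF 1 of the 5 rose and 0 fell, against 6.85% and 5.34% of all genes. DDIT3 rose from 5.6 to 10.1 FPKM (limma adjusted p = 0.00375), while CEBPD, at 2.38 FPKM, did not pass (limma adjusted p = 0.0111). Of 6 tested inflammasome and caspase genes, some of which mature the IL1B protein, 0 were called in siIGF2BP1. Over all genes 3.57% were lower and 3.55% higher there. CASP1 had the smallest limma adjusted p of the 6 in siIGF2BP1, 0.0215. TIAL1 and CASP1, like NFKBIA and RELA above, were chosen for naming after their values were seen. In siSRF 2 of the 6 inflammasome and caspase genes fell and 1 rose, against 5.34% and 6.85% of all genes. The DNA sensor AIM2 fell there from 3.29 to 0.765 FPKM (limma adjusted p = 0.00213) and the pore protein gene GSDMD from 5.77 to 2.47 FPKM (limma adjusted p = 5e-04). NLRP1 rose from 3.08 to 4.67 FPKM (limma adjusted p = 0.00709).

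Of 23 other interleukins and growth factors, 10 were tested in siIGF2BP1 and 9 in siSRF. Of the 10, 0 were called in siIGF2BP1, against 3.57% of all genes lower and 3.55% higher. Of the 9, 2 rose and 0 fell in siSRF, against 6.85% and 5.34% of all genes. IL12A rose in siSRF from 1.21 to 2.64 FPKM (limma adjusted p = 0.00759) and TSLP, an epithelial alarm cytokine, from 0.559 to 1.74 FPKM (limma adjusted p = 0.00683). TNF, a main inducer of most of the members in other cells, was at 0 in all libraries.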

How the data were processed

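Total RNA of ES-2 cells was measured in 9 libraries, 3 per condition, with groups and replicate numbers taken from the sample labels. The authors trimmed reads with cutadapt 1.14, aligned them to GRCh38 with HISAT2 2.1.0, summarized them per Ensembl gene with featureCounts 1.5.3 and deposited FPKM per library with TMM scaling in a pair of tables. The fold changes and significance values in those tables, from edgeR 3.18.1, were not used here. The strand setting of the counting is not given in the sources used here, so reads of overlapping genes are uncertain. FPKM times gene length gave whole multiples of 1 read for 100% of values (tolerance 0.05 reads), and the siC columns were identical in both tables.

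Conditions were compared in R 4.3.3 with limma 3.58.1 (lmFit, eBayes with trend) on log2(FPKM + 0.1), keeping genes averaging 0.1 FPKM or more over the 6 libraries compared. Benjamini-Hochberg adjustment ran over every gene kept, and single genes were also given a two-sided exact permutation test over libraries. The scripts were tested on simulated data. Alternatives were pseudocounts of 1 and 0.01, other filters, median-ratio rescaling, limma-voom on recovered reads, a replicate block, all 9 libraries in a single fit, a threshold of 0.05, leaving out each library and, chosen after seeing the data, removal of cubic trends in GC content and in log length (98.9% of genes matched).

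The members, and the lists of related genes, were chosen with earlier results of these data known. Named genes are all members, the targeted genes, a part of the ligands, receptors and IL10 cluster genes whether called or not, and, per list and comparison, at most 4 called genes averaging at least 1 FPKM with the largest change, besides the 5 genes most correlated with IL24. Gene coordinates and 3′UTRs are from GENCODE v44 on GRCh38, and promoters from RefSeq on GRCh38.p14. Some marker genes are not reported here.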

Additional observations from a re-analysis of the deposited data

How the results depend on the processing

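Over the 21 tested results of single members, 332 alternative values were computed, of which 307 kept direction and side of the threshold, 9 lost the call, 14 gained one and 2 reversed. The calls of CXCL8 in siIGF2BP1, of IL11 in siSRF and of CXCL8, LIF and IL11 between the knockdowns held under every alternative that could be computed. The labels do not say whether libraries with equal replicate numbers were handled together. The deviations of same-numbered libraries from their group means correlated between -0.0438 and 0.0186, which cannot show how they were handled. With the replicate block, 1 member instead of 3 was called lower in siIGF2BP1 and 0 instead of 1 in siSRF, where IL1A had an adjusted p of 0.0139, and over all genes 31 were called lower and 60 higher in siIGF2BP1 instead of 796 and 792. In siSRF 3 members were called higher by limma-voom on recovered reads and 4 at a threshold of 0.05, instead of 1. After correction for GC content and gene length 2 members were called higher. Over all genes these settings called 2780 of 21857, 2899 of 21857 and 1523 of 21614 higher, instead of 1498 of 21857. For members higher in siIGF2BP1, the threshold of 0.05 gave 1 against siC instead of 0, beside 1760 of 22292 genes. Against siSRF limma-voom, all 9 libraries together and the threshold of 0.05 each gave 1 member instead of 0. Over all genes these settings called 3282, 2324 and 3345 of 22311 higher there. By limma-voom 1891 genes were lower and 1914 higher in siIGF2BP1. Without 1 library, 224 to 329 were lower and 212 to 420 higher. The fit of all 9 libraries called 1309 lower there and 1172 higher, and the threshold of 0.05 gave 1836 and 1760. In siSRF, where 1167 genes were lower and 1498 higher, the replicate block left 244 and 257, limma-voom gave 2343 and 2780, the threshold of 0.05 gave 2306 and 2899, and leaving out 1 library gave 482 to 673 and 464 to 1123. Between the knockdowns, 2492 genes were lower and 1968 higher in siIGF2BP1, against 1203 and 872 with the replicate block, 3630 and 3282 by limma-voom, 3787 and 3345 at 0.05, and 1577 to 1951 and 1214 to 1455 without 1 library. The log2 change of CXCL2 in siIGF2BP1 ranged from -0.26 to 0.13 without 1 library, being 0.08 without siC replicate 1 and 0.13 without siIGF2BP1 replicate 3, with no call in any. The LIF call in siIGF2BP1 had adjusted p between 0.00632 and 0.033 without 1 library. The IL1A call in siIGF2BP1 was lost with the replicate block (adjusted p = 0.0203) and, just above the threshold of 0.01, when only genes averaging 1 FPKM were kept. The causes were not tested. Depth limits IL6 and CCL2, which had no more than 1 read in any library.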
